A study of Mus musculus with 9 samples.

Results

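Broad H3K27ac peaks over promoters were examined in primary oviductal muscle cells of WT mice. They were selected on the length and position of pooled H3K27ac peaks: a peak on chromosomes 1 to 19 or X was taken if it was at least 10000 bp long and overlapped the window of 1 kb on either side of any protein-coding transcript start. This rule gave 357 peaks out of 64816 pooled H3K27ac peaks on these chromosomes, or 2.80% of the 12768 pooled peaks that overlapped a promoter. Another 157 peaks of this length lay away from promoters. The length, pileup and replicate support of H3K27ac therefore belong to the selection and are given as description. H3K4me1 took no part in it, although its peaks were called against the same IgG libraries.

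H3K27ac, acetylation of lysine 27 of histone H3, marks active promoters and active enhancers. At most active genes it forms short peaks on both sides of the nucleosome-depleted start site. Wide blankets of acetylation over a promoter are known from highly transcribed genes and from genes that define cell identity, where promoter and nearby enhancers run together. H3K4me1, monomethylation of lysine 4, is typical of enhancers and of the flanks of promoters, and gives way to H3K4me3 at the start site itself.

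The cells were prepared from oviducts on D2 of pregnancy, from mice 8 to 12 weeks old. Digested and filtered oviduct cells were plated for 4 h, then given fresh medium with serum for 2 h, and the material was therefore a short-term culture, with no sort for muscle cells named in the labels. ChIC-Seq brings a ProteinA-MNase fusion to the antibody on the mark, so that the nuclease frees the chromatin around it for sequencing. H3K27ac, H3K4me1 and IgG had 3 samples each, all WT, and whether the 3 of a group came from separate animals or pools is not stated.

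The pooled H3K27ac call rested on 123315752 fragments against 9961086 IgG fragments. The replicate calls had 40551842 to 42040809 fragments for H3K27ac and 41891318 to 78891920 for H3K4me1, with 3110985 to 3713369 IgG fragments. H3K4me1 replicates 1 and 2 and H3K27ac replicate 2 were called against the same IgG library, and the part of IgG depth in the extent of the called peaks was not tested. Pileup is the mean fragment coverage of a peak after scaling to the IgG depth, and 1 unit equals 12.4 fragments of the pooled H3K27ac libraries.

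The proximal promoters of 6 of these genes are shown because their peaks stood at opposite ends of H3K4me1 cover, the share of a peak's base pairs that H3K4me1 peaks covered. Each stretch is the 200 bp before a RefSeq start on GRCm38.p6, overlapping no annotated exon, with the CpG dinucleotides in capitals. The first 3 come from the broad peaks with the lowest H3K4me1 cover among the 10 longest peaks and the listed genes, and the last 3 from those with the highest, leaving out peaks with no usable stretch.
Hoxa10: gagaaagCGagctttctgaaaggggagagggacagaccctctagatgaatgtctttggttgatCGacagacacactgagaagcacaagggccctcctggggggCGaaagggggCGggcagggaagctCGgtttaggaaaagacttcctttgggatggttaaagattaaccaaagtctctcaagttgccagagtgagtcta
Hoxd10: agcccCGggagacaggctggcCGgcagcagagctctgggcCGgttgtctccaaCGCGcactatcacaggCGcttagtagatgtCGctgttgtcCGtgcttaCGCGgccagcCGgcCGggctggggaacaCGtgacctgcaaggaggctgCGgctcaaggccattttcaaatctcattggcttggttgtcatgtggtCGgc
Tgif1: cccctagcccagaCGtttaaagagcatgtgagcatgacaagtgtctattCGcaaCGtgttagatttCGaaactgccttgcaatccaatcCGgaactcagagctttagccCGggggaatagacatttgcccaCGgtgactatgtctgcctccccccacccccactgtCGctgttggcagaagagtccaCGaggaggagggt
Ppp1r12a: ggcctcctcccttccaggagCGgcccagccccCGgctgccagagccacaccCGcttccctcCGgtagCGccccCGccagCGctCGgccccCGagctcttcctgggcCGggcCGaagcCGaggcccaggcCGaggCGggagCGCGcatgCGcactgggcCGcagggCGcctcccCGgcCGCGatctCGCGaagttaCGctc
Filip1l: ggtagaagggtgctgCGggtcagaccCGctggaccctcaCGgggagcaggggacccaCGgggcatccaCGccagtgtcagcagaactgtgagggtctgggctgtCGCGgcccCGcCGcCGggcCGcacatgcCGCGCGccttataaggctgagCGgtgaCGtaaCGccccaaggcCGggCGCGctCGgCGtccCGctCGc
Rara: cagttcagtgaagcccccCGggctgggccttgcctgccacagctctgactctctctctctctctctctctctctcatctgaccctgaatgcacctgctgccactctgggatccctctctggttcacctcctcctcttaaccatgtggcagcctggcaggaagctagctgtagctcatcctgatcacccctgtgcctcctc
The Hoxa10 stretch (chr6:52240855-52241054, minus strand) and the Ppp1r12a stretch (chr10:108161898-108162097, plus strand) were intergenic. Those of Tgif1 (chr17:70851735-70851934, minus strand), Filip1l (chr16:57549042-57549241, plus strand) and Rara (chr11:98939511-98939710, plus strand) lay in introns of longer isoforms of these genes, the Filip1l stretch also inside the body of Cmss1. The stretch of Hoxd10 (chr2:74691691-74691890, plus strand) lay in an intron of the noncoding gene Gm28309. They held 5 CpGs for Hoxa10, 15 for Hoxd10, 9 for Tgif1, 25 for Ppp1r12a, 24 for Filip1l and 1 for Rara. The CpG content next to the start thus did not follow the order of H3K4me1 cover in these 6, in contrast to the CpG content of whole peaks described further on.

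The 357 peaks together spanned 4982663 bp, 5.01% of the sequence under all pooled H3K27ac peaks. Their length ran from 10001 to 52956 bp with a median of 12091 bp, and 269 were under 15000 bp, 53 had 15000 bp up to 20000 bp and 35 had 20000 bp or more. Pileup ran from 4.31 to 13.71, with a median of 7.36, or 10.5 times the mean coverage of the genome. Promoter peaks of 5000 bp up to 10000 bp had nearly the same median pileup, 7.365, and across the 357 broad peaks length and pileup were unrelated (Pearson r = 0.0035, Spearman rho = -0.010, both across peaks that share libraries). Shorter promoter peaks, under 5000 bp, were lower, with a median pileup of 6.55, and the median of all pooled peaks was 4.16. Of the covered sequence 19.5% was exonic, 64.2% intronic and 16.2% intergenic by the annotation of all gene types.

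The edge of the selection was not a break in the data. The shortest peaks taken lay over March7 (10001 bp, pileup 6.02), H6pd (10010 bp, 7.92) and Jmjd1c (10014 bp, 4.89). The longest promoter peaks left out lay over Atp2a2 (9995 bp, 5.89), Dennd5a (9988 bp, 6.30) and Actg1 (9964 bp, 10.75).

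The longest peak covered 52956 bp at Cwc22 (chr2:77896468-77949423), which encodes a splicing factor. Peaks of H3K27ac replicates 1, 2 and 3 covered 95.2%, 89.8% and 95.1% of it, and H3K4me1 peaks 74.8%, 85.9% and 100.0%. Nr2f2 followed with 45763 bp (chr7:70329629-70375391). It encodes COUP-TFII, a nuclear receptor of mesenchymal cells, and its peak also held the starts of 4 noncoding genes. H3K27ac replicate peaks covered 92.3%, 90.9% and 82.3% of it, and H3K4me1 peaks 30.4%, 34.2% and 35.5%. H3K4me1 cover was thus lower at Nr2f2 than at Cwc22 in each list, without overlap of the values.

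Mbnl1, a muscleblind regulator of splicing, had a pair of broad peaks, 44230 bp at chr3:60495087-60539316 and 31780 bp at chr3:60580900-60612679. H3K4me1 covered 87.6%, 85.7% and 96.2% of the first and 97.5%, 100% and 93.4% of the second, where the pileup was 4.55, among the 3 lowest of the 357. Chd2, a chromatin remodeller (41312 bp), had 75.5%, 83.1% and 83.3% H3K4me1 cover. Ppp1r12a, the targeting subunit of myosin phosphatase (35455 bp), had 87.6%, 90.9% and 88.0%. At these genes H3K4me1 lay under at least 75.5% of the acetylated stretch in each list.

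Hand2, a bHLH factor of the female reproductive tract stroma, had 28761 bp of pooled H3K27ac, which included the start of its divergent partner Hand2os1. The H3K27ac replicates covered 85.6%, 79.2% and 82.2% of it and the H3K4me1 lists 25.1%, 24.2% and 33.2%. A peak of 28504 bp lay over Hoxa7, Hoxa9, Hoxa10 and Hoxa11 (chr6:52220623-52249126), with 82.7%, 97.6% and 79.2% H3K27ac cover and 0% H3K4me1 cover in each of the 3 replicate lists and in the pooled list. Ets1 (28188 bp) had H3K4me1 cover of 82.2%, 89.6% and 86.6% and H3K27ac replicate cover of 66.1%, 70.0% and 50.3%, and no H3K27ac replicate peak there was longer than 9050 bp. The tenth peak, 27844 bp on chromosome 13, lay over 9 genes of the Hist1 cluster of replication-dependent histones. H3K4me1 covered 63.4%, 67.7% and 32.8% of it, with replicate 3 apart from the others. Histone genes have close copies, and how reads that map to several places were treated is not given in the sources used here.

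**Figure D1:**
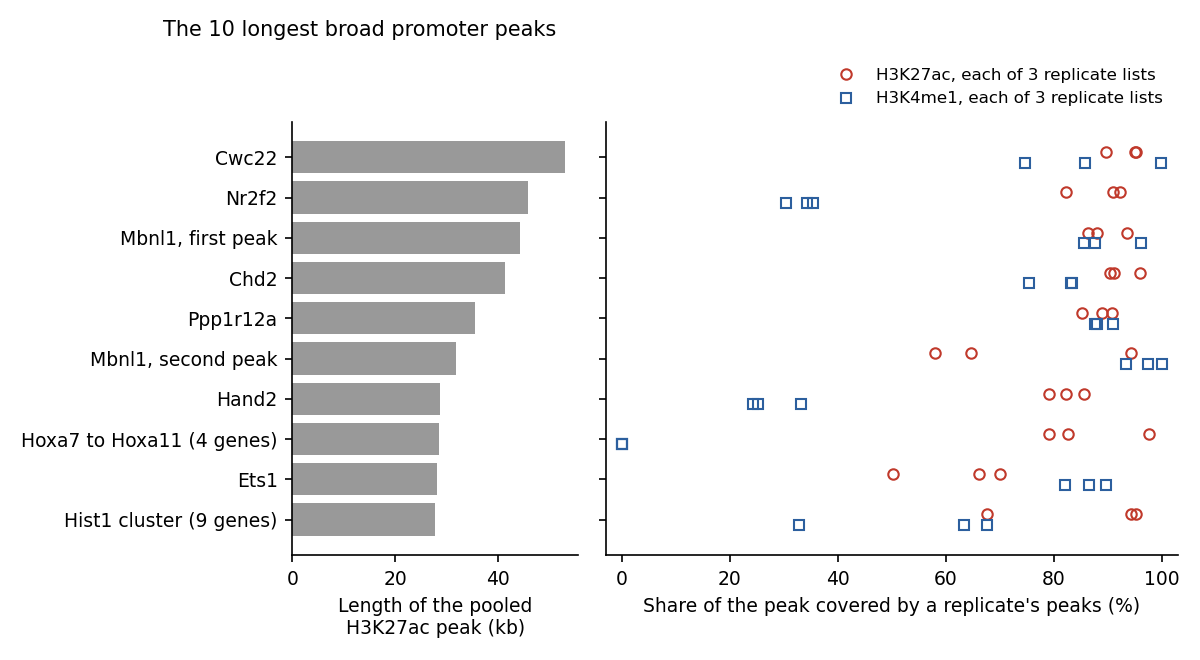
Length of the 10 longest broad promoter peaks (left, kb) and the share of each covered by peaks of the 3 H3K27ac and 3 H3K4me1 replicate lists (right, %; 1 symbol per list). H3K4me1 cover was 24.2% to 35.5% at Hand2 and Nr2f2 and 0% at the Hoxa genes, and at least 74.8% at Cwc22, Mbnl1, Chd2, Ppp1r12a and Ets1.

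Each of the 357 peaks was met by peaks of all 3 H3K27ac replicates. The background for this count was 74.3% of all pooled promoter peaks, and since the pooled call contains the replicates, nothing is read from it. Replicates 1, 2 and 3 covered a median of 83.3%, 84.5% and 77.8% of a broad peak, but usually in pieces, with a median of 2, 2 and 3 peaks inside it. A replicate peak of 10000 bp or more lay over the pooled peak in all 3 replicates for 40 peaks, in 2 for 61, in 1 for 94 and in none for 162. In the widest sense, then, 101 of 357 were broad in at least 2 replicates. This count fell to 48 without H3K27ac replicate 1 and to 57 without replicate 2, where both of the remaining replicates had to hold such a peak. Applied to a replicate list alone, the rule gave 181, 123 and 93 broad promoter peaks in replicates 1, 2 and 3, in the order of the number of peaks in these lists (152889, 99035 and 93684).

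The lowest mean cover over the 3 H3K27ac replicates was at Maml2, a coactivator of Notch signaling, with 76.3%, 22.2% and 31.0%, at Tas2r143, a bitter taste receptor gene, with 73.3%, 30.9% and 36.4%, and at the peak shared by Stx5a, Wdr74 and 1700092M07Rik with 64.7%, 55.6% and 30.5%. At the first and second of these, replicate 1 alone covered most of the peak. The highest pileups were at Zc3h4 (13.71), at the peak over Rhof and Setd1b (13.55), the latter encoding an H3K4 methyltransferase, and at that over the clock gene Per1 and Vamp2 (13.54). The lowest were at Luzp1 (4.31), Rtn4 (4.38) and the second Mbnl1 peak. H3K4me1 covered 20.4% to 36.7% of the first 3 and 75.8% to 98.1% of the last 3, as means of the 3 lists. Across all 357 peaks pileup and mean H3K4me1 cover were inversely related (Pearson r = -0.51, Spearman rho = -0.50, across peaks, which are not replicates).

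In all, 437 protein-coding genes had a promoter in a broad peak, 2.02% of 21670 genes, while 56.7% had an H3K27ac promoter peak of any length. Promoters of 1 gene lay in 292 of the peaks, of 2 genes in 50 and of 3 or more in 15. The most genes were in the 9-gene histone peak, in another histone peak with 5 genes (Hist1h2ad, Hist1h2ae, Hist1h2bf, Hist1h2bg and Hist1h3d, 10324 bp) and in the Hoxa peak with 4. Conversely, 10 genes had more than 1 broad promoter peak, among them Esr1, the estrogen receptor (21421 and 11673 bp), and Tcf4, an E protein (19115, 13100 and 10692 bp). A start of a long noncoding RNA gene lay in 83 of the peaks.

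MicroRNA genes also lay under broad acetylation. The annotation placed miRNA genes inside 26 of the peaks, and 28 mature miRNAs of 17 RefSeq genes lay in 14 of them. The mature sequences below are of the miRNA inside the Hoxa peak and of the cluster inside the 18895 bp peak over Spaca6 on chromosome 17, chosen after the values were seen as examples from 2 long peaks with less H3K4me1 than the median peak. They are not the only ones, since miR-8110 lay in a 26388 bp peak over Sall1 with 8.11% mean H3K4me1 cover and miR-7655 in a 25689 bp peak over Mllt10 and Skida1 with 57.3%. The seed, bases 2 to 8, is in capitals.
miR-196b-5p: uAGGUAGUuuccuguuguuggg
miR-99b-5p: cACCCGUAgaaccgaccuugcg
let-7e-5p: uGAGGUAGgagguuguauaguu
miR-125a-5p: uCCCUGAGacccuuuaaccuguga
miR-196b (chr6:52230129-52230150, minus strand) lay between Hoxa9 and Hoxa10 in sequence without an H3K4me1 peak in any list. The Spaca6 peak, with miR-99b-5p at chr17:17830194-17830215, let-7e-5p at chr17:17830366-17830387 and miR-125a-5p at chr17:17830817-17830840, all on the plus strand, had a mean H3K4me1 cover of 36.9%. The 4 seeds differ from each other. None of the lists measured the RNAs.

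The peaks ran mostly into the gene. For the 289 peaks over promoters of 1 gene with a start inside the peak, a median of 2930 bp lay upstream of the first start in the peak and 9465 bp downstream, and 259 extended farther downstream. Measured from the last start instead, the medians were 4024 and 8350 bp and 215 extended farther downstream. At Cwc22, 49907 bp lay downstream of the first start and 3048 bp upstream. Hand2, with 1 start, was more balanced with 16333 and 12427 bp. Anxa1 was turned the other way, with 21090 bp upstream and 5468 bp downstream, a gene named after its values were seen.

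The X chromosome held 1 of the 357 peaks. It lay over Tmsb4x, which encodes an actin-sequestering thymosin, and was 12760 bp long. H3K27ac replicates covered 81.6%, 75.9% and 87.6% of it, and the H3K4me1 lists 28.1%, 37.5% and 43.7%. There were 369 promoter peaks on X, of which this 1 is 0.271%, against 2.80% of all promoter peaks. Promoter peaks on X were shorter (median 2104 bp, against 2419 bp on the autosomes) and lower (median pileup 4.78 against 6.79).

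The gene lists were then read against the background of 2.02% of all protein-coding genes with a broad promoter peak. Of the 12289 genes with a promoter peak of any length 437 had a broad one. The lists were chosen with earlier results of these data known, so their shares are description. Of the listed transcription factors of mesenchyme 18 of 35 had a broad promoter peak and 30 of 35 a promoter peak of any length. Among these 18 were Nr2f2, Hand2, Hoxa9, Hoxa10, Hoxa11, Hoxd9, Hoxd10, Wt1, Meis1, Meis2, Emx2, Osr2, Tbx3, Tcf21, Tcf4, Zeb2 and Runx2. Hoxa9, Hoxa10 and Hoxa11 shared a peak, as did Hoxd9 and Hoxd10. The median of the longest promoter peak over the listed genes with any was 12220.5 bp, against 2813 bp over all marked genes. Tbx18, Foxf1, Foxf2, Tbx2 and Nr2f1 had no promoter peak at all.

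H3K4me1 was sparse over many of these factor genes. Over their 17 peaks the median of the mean cover was 43.5%, against 65.7% over all 357, and it ran from 0% at the Hoxa peak to 83.2% at a Tcf4 peak. The peak over Hoxd8, Hoxd9 and Hoxd10 (21690 bp) had 8.28%, 8.99% and 0.751% in the 3 lists, and that of Meis2, a homeodomain partner of Hox proteins (13920 bp), had 17.7%, 6.56% and 14.9%. Tbx3, a T-box factor (13640 bp), had 17.4%, 31.3% and 4.26%. In contrast, Wt1 (22239 bp) had 43.2%, 45.6% and 41.5%, and Meis1 (20394 bp) had 62.3%, 57.2% and 45.5%. At the Hoxd, Meis2 and Tbx3 peaks no H3K4me1 list covered more than 31.3%, whereas at Wt1 and Meis1 each covered at least 41.5%.

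Cytoskeleton and adhesion genes followed with 9 of 24, and all 24 had a promoter peak of some length. The 9 were Actn4, which crosslinks actin, Vcl and Filip1l, the integrins Itgb1, Itga5 and Itgav, Cavin1 of caveolae, Ahnak and Myh9, a nonmuscle myosin. Their peaks ran from 20793 bp at Filip1l to 11515 bp at Itga5. H3K4me1 covered 74.2%, 79.4% and 98.6% at Filip1l and 77.4%, 80.8% and 86.2% at Itgb1, and the median of the mean cover was 65.6%, close to that of all broad peaks.

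The smooth muscle contractile list, which should mark the labelled cell type, had 1 broad promoter peak among 24 genes (4.17%), a share near the background of 2.02%. It was at Cald1, which encodes caldesmon (16057 bp, H3K4me1 cover 74.4%, 73.3% and 71.8%). Promoter peaks of some length were present at 18 of 24, with 9130 bp at Tpm1 and 4382 bp at Acta2, but at Cnn1, Lmod1, Actg2, Mylk, Myocd and Kcnmb1 there was none, and at Myh11 437 bp. Several defining genes of contraction thus had no promoter H3K27ac peak in cells labelled as muscle. For other cell types the count was 0 of 16 genes of oviduct epithelium (5 with any promoter peak), 0 of 16 of blood cells (7 with any), 0 of 14 of endothelium (8 with any) and 0 of 16 of liver and neuron (2 with any). Lists of this size at the background share of 2.02% would also mostly hold none, so nothing is read from these zeros. The longest in these lists was 4482 bp at Cd68, a macrophage gene. Other markers of these cells with a promoter peak included Muc1 (2898 bp), Krt8 (2073 bp) and Pax8 (1389 bp) of epithelium, Ptprc (3323 bp) and Tyrobp (1900 bp) of blood cells, and Eng (1703 bp), Cdh5 (1417 bp), Tek (1052 bp), Pecam1 (1000 bp) and Kdr (608 bp) of endothelium. The epithelial genes Cdh1, Epcam, Krt7, Krt18, Krt19, Foxj1, Ovgp1, Cldn4, Esrp1, Elf3 and Grhl2 had no promoter peak. The same held for Csf1r, Itgam, C1qa, C1qb, Lyz2, Cd79a, Cd3e, Vav1 and Coro1a of blood cells. It also held for Tie1, Erg, Vwf, Cldn5, Sox18 and Egfl7 of endothelium. In peak lists of a mixed culture, fewer cells of a type and a weaker mark per cell cannot be told apart.

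Genes that answer to stimuli were also counted. Of immediate early and Kruppel-like factor genes 7 of 23 had a broad promoter peak, namely Klf6, Klf9, Ier2, Ier5, Nr4a2, Zfp36 and Zfp36l1, and of AP-1 genes 2 of 12, Fosl2 and Junb. At Junb (12248 bp) the pileup was 12.3 and the H3K27ac replicates covered 98.9%, 94.8% and 100%, with H3K4me1 at 48.6%, 44.4% and 52.7%. At the peak of Zfp36, an mRNA decay factor, and Plekhg2 (15671 bp), the pileup was 12.38 and H3K4me1 cover 31.2%, 21.9% and 14.5%. The cells had been digested and plated before fixation, and its part in these peaks was not tested.

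Of the extracellular matrix list 6 of 31 genes had a broad promoter peak. Dcn, the proteoglycan decorin (15794 bp), had H3K4me1 cover of 86.7%, 87.0% and 81.3%. The fibrillar collagen genes Col5a2 (15420 bp) with 91.2%, 90.1% and 81.1%, Col3a1 (14558 bp) with 84.5%, 86.1% and 68.4%, and Col1a2 (14910 bp) with 64.6%, 72.0% and 89.2% were alike. Sparc (10929 bp) with 36.2%, 17.7% and 27.3% and Ccn2 (10776 bp) with 56.1%, 44.9% and 49.2% were lower. The matrix peaks were poor in CpG, with a median of 0.805 per 100 bp against 1.84 in all broad peaks.

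The list of steroid receptors, related nuclear receptors and cofactors gave 3 of 17. Both Esr1 peaks were covered by H3K4me1, the longer by 70.0%, 73.1% and 79.2% and the shorter by 34.6%, 50.7% and 83.4%, where the lists differed widely. Pgr, the progesterone receptor (11814 bp), had 75.0%, 81.1% and 83.0%, and H3K27ac replicate cover of 88.4%, 100% and 99.9%. Rara, a retinoic acid receptor (13423 bp), had 88.0%, 86.8% and 70.5%.

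Among signaling genes 3 of 25 of the TGF-beta and BMP pathway had a broad promoter peak. They were Smad7, an inhibitory SMAD, Tgif1, a SMAD corepressor, and Inhba, an activin subunit. Of growth factor signaling 2 of 19 did (Pdgfra, Irs1), of cytokine and NF-kB signaling 2 of 18 (Socs3, Stat3) and of the Wnt pathway 1 of 17. This was Wnt5a, a ligand of mesenchyme (10635 bp), with H3K4me1 at 22.2%, 3.76% and 5.20%. The prostaglandin pathway had 0 of 22, with 9601 bp at the receptor gene Ptger4 as its longest promoter peak. Ribosomal protein genes had 0 of 24, and all 24 had a promoter peak, of 1755 to 7556 bp. At the background of 2.02% such lists would also often hold none, so nothing is read from either 0.

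**Figure D2:**
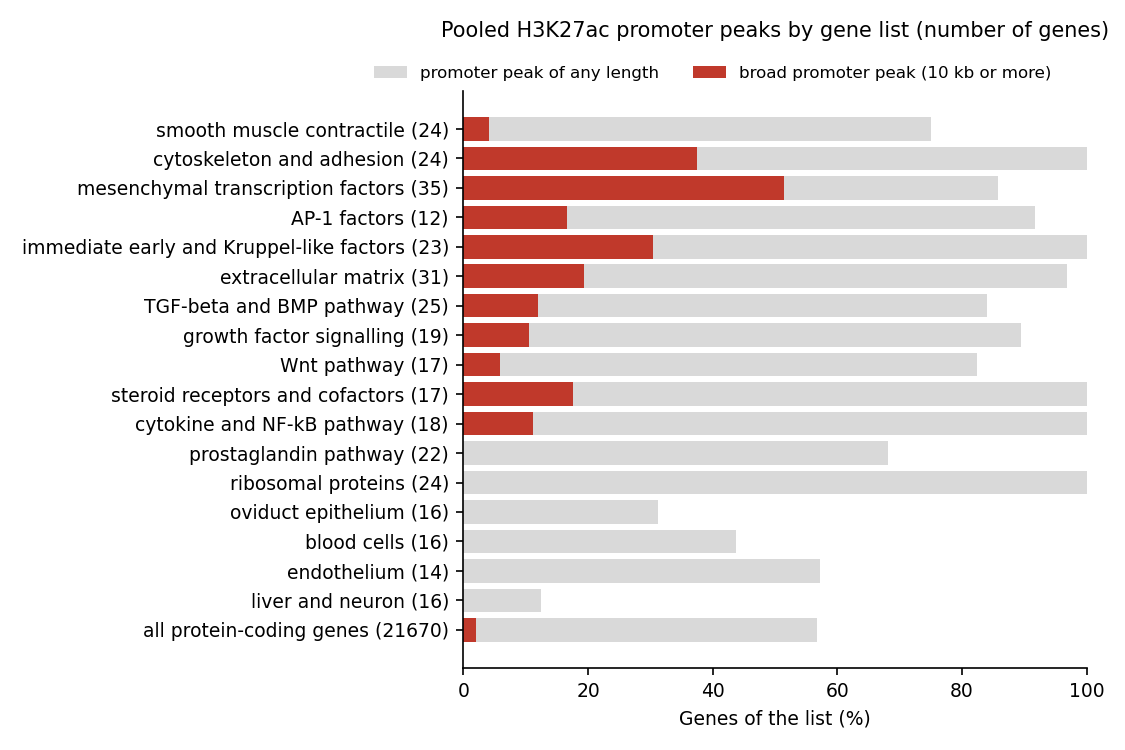
Share of the genes of each list (number of genes in parentheses) with a pooled H3K27ac promoter peak of any length (grey) and with a broad one (red), in %. Mesenchymal transcription factors had 18 of 35 with a broad peak, against 2.02% of all protein-coding genes. The lists were chosen with earlier results of these data known.

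H3K4me1 was then compared, per replicate list, between the broad promoter peaks and other sets. Of the sequence under broad promoter peaks, H3K4me1 peaks covered 61.5%, 64.1% and 63.4% in the 3 replicate lists, with a mean of 63.0 ± 1.39% (SD, n = 3). Under the 1858 promoter peaks of 5000 bp up to 10000 bp they covered 51.8%, 55.4% and 52.7%, a mean of 53.3 ± 1.85% (SD, n = 3). The ranges did not overlap, and broad peaks were higher by 9.73 ± 0.987 percentage points (SD of the paired differences), in 3 of 3 lists. The exact permutation test over the 8 sign assignments of the paired lists gave p = 0.25, two-sided, the smallest that 3 pairs allow (adjusted p = 0.25 over the 4 comparisons).

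Against the 157 broad peaks away from promoters the order was turned. These had 68.0%, 69.0% and 68.1% H3K4me1 cover, and broad promoter peaks were lower by 5.36 ± 0.998 percentage points (difference -5.36), in 3 of 3 lists (exact permutation p = 0.25, adjusted p = 0.25). Broad promoter peaks thus lay between shorter promoter peaks and peaks of at least 10000 bp elsewhere, in each list. The rule placed every broad promoter peak at a start and kept the peaks elsewhere away from starts. Inside broad promoter peaks mean H3K4me1 cover was 38.5% within 1 kb of a start and 69.0% at 2 to 5 kb. The difference of -5.36 points thus includes the sequence at the start, and the sets were not compared without it. When H3K4me1 peaks were filtered on their p-value, the first difference was 14.8 points and the second -1.85 points, with 1 list at 0.481, and with a minimum of 15000 bp the second was -2.02 points, with 1 list at 0.779. With 1 start per gene the second was larger, at -10.1 points. The design could not reach a p under 0.05 in any of these tests. The H3K4me1 libraries differed in depth up to 1.88-fold, and its part in the level of cover was not tested.

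**Figure D3:**
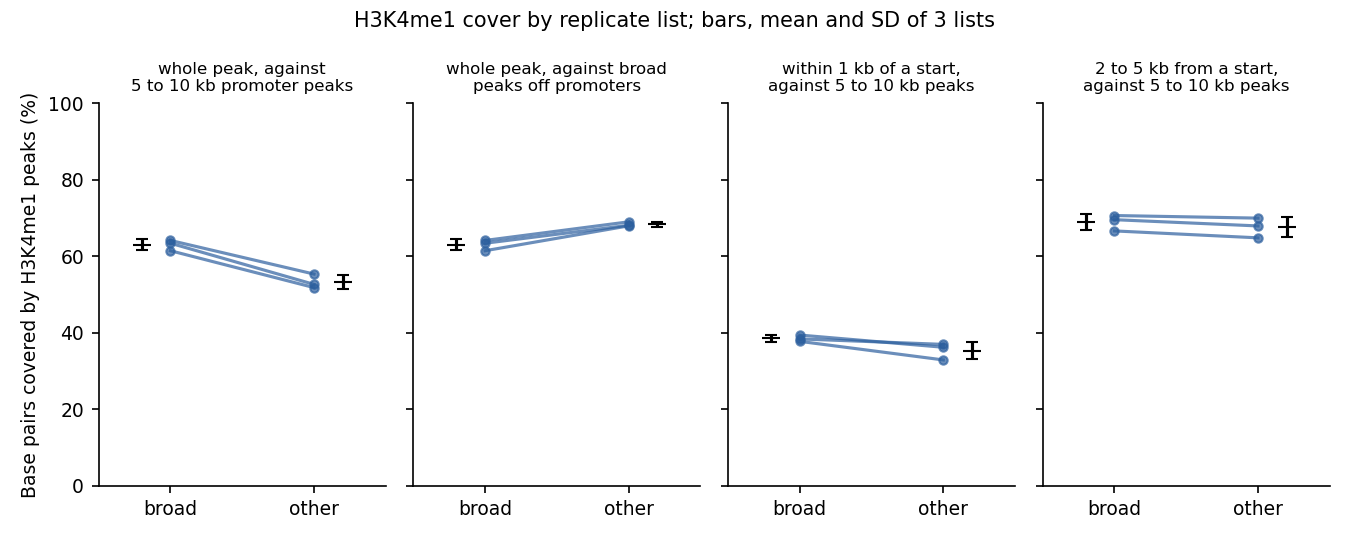
Share of base pairs covered by H3K4me1 peaks (%) in broad promoter peaks and in the set they were compared with, 1 line per replicate list, with mean and SD of 3 lists beside. In the first panel the broad peaks lie at 61.5% to 64.1% and the shorter promoter peaks at 51.8% to 55.4%.

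The distance from the start was separated next. Within 1 kb of a start, H3K4me1 covered 39.4%, 38.4% and 37.7% of the broad peaks and 36.2%, 37.0% and 32.9% of those of 5000 bp up to 10000 bp, a difference of 3.16 ± 1.71 percentage points (exact permutation p = 0.25, adjusted p = 0.25). At 2 to 5 kb from the nearest start the values were 66.6%, 70.7% and 69.6% against 64.8%, 70.0% and 67.9%, a difference of 1.38 ± 0.608 points in 3 of 3 lists (exact permutation p = 0.25, adjusted p = 0.25). At 1 to 2 kb the broad peaks had 56.9 ± 2.22% and the shorter 56.7 ± 2.73%, and at 5 to 10 kb 77.3 ± 1.20% against 72.4 ± 2.01% (SD over 3 lists; no test was run), where the ranges did not overlap. With 1 start per gene, its 5′ end, the near difference was 0.488 points, with 1 list at -0.288, and that at 2 to 5 kb turned to -3.14 points. With H3K4me1 peaks filtered on their p-value the differences were 5.17 points within 1 kb and 8.04 points at 2 to 5 kb. The difference at 2 to 5 kb thus depended on which starts and which H3K4me1 peaks were counted.

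Within broad peaks H3K4me1 cover was higher farther from the start. The mean cover of the 3 lists was 38.5 ± 0.836% (SD) within 1 kb of a start, 56.9 ± 2.22% at 1 to 2 kb, 69.0 ± 2.08% at 2 to 5 kb, 77.3 ± 1.20% at 5 to 10 kb (292 peaks reached so far) and 78.4 ± 3.76% at 10 to 20 kb (98 peaks). The ranges over the lists did not overlap between these distances, except between the last 2. H3K27ac replicate cover, which the selection used, was 90.1% within 1 kb and 73.1% at 5 to 10 kb. At the 5′ end itself of the 387 genes with it in or near a broad peak, 24.7 ± 3.12% had an H3K4me1 peak, against 56.8 ± 2.07% at 2 kb downstream and 38.8 ± 3.67% at 2 kb upstream. At 10 kb downstream 46.4 ± 1.56% had one, against 22.0 ± 3.59% at 10 kb upstream. For the 1970 genes of peaks of 5000 bp up to 10000 bp it was 24.2 ± 0.748% and 10.0 ± 0.740%.

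**Figure D4:**
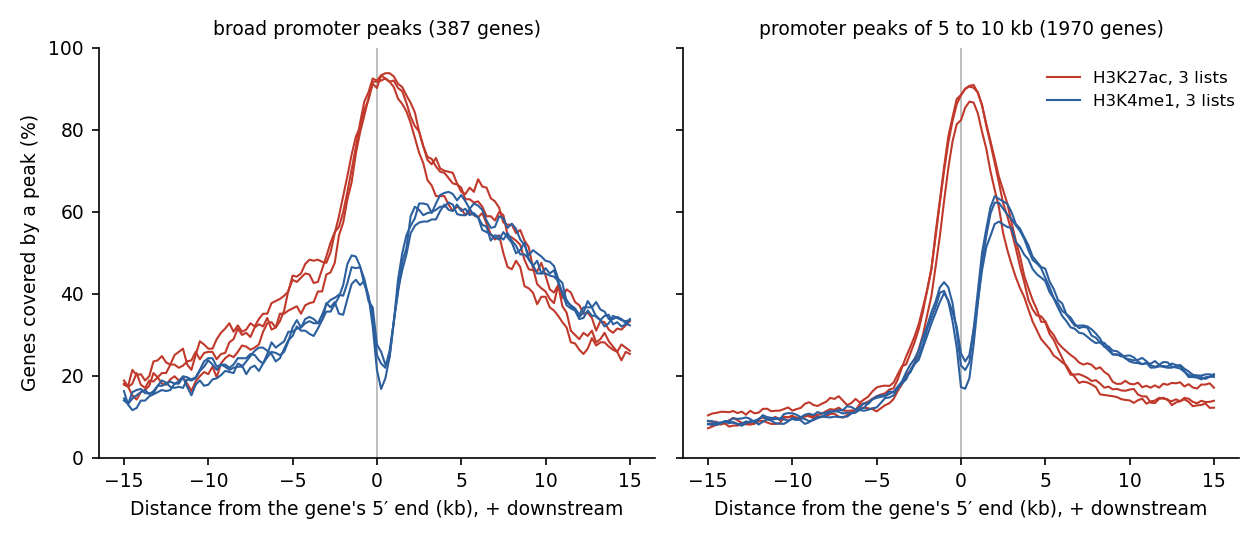
Share of genes (%) with a replicate peak at each distance from the gene's 5′ end (kb), for genes of broad promoter peaks (left) and of promoter peaks of 5000 bp up to 10000 bp (right), 1 line per replicate list. H3K4me1 dips at the 5′ end in each list, and both marks reach farther downstream than upstream.

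H3K4me1 cover differed more between broad peaks than between lists. Per peak its median was 64.1%, 67.4% and 66.3% in replicates 1, 2 and 3 and it ran from 0% to 100% in each. The median range over the 3 lists of a peak was 16.9 percentage points. At 207 peaks more than 50% was covered in all 3 lists, and at 4 more than 90%. At 7 it was under 20% in all 3, and at 2 there was no H3K4me1 peak in any replicate list. These 2 were the Hoxa peak and that of Zfp503, a zinc finger gene (10263 bp, chr14:21981451-21991713), where the H3K27ac replicates covered 88.1%, 85.5% and 92.4% and the pooled H3K4me1 list 2.61%. The Hoxd peak was the next lowest. Of all 357, 354 were met by H3K4me1 peaks in all 3 lists, against 56.7% of all pooled promoter peaks, which are shorter. The highest mean cover was at a peak over Setd5, which encodes a SET domain protein (11538 bp, 100% in each list), at Rtn4, a reticulon of the endoplasmic reticulum (17435 bp, 100%, 100% and 94.4%), and at the second Mbnl1 peak.

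The peaks of low and high H3K4me1 also differed in sequence. Broad promoter peaks had a median of 1.84 CpG per 100 bp, against 0.834 in the genome, 2.45 in promoter peaks of 5000 bp up to 10000 bp and 0.809 in broad peaks away from promoters. Across the 357 peaks CpG content and mean H3K4me1 cover were inversely related (Pearson r = -0.56, Spearman rho = -0.52), with Pearson r of -0.47, -0.49 and -0.57 in replicates 1, 2 and 3. In the 90 peaks with the fewest CpGs the median H3K4me1 cover was 71.7%, 77.3% and 79.5%, and in the 89 with the most it was 45.8%, 47.6% and 44.6%. Pileup and CpG content were directly related (r = 0.46). Among promoter peaks of 5000 bp up to 10000 bp the correlation of CpG content with H3K4me1 cover was -0.37. All peaks share the same libraries, so these are descriptions across peaks, and the part of base composition in fragment recovery was not tested.

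**Figure D5:**
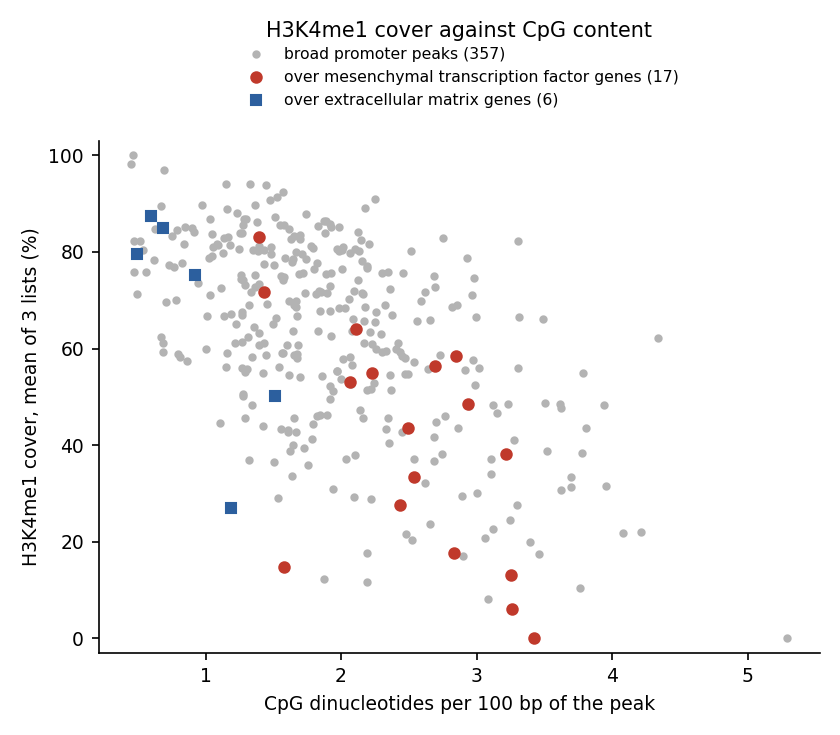
H3K4me1 cover (mean of 3 replicate lists, %) of each of the 357 broad promoter peaks against its CpG dinucleotides per 100 bp. The 17 peaks over listed mesenchymal transcription factor genes (red circles) have a median cover of 43.5%, and the 6 over extracellular matrix genes (blue squares) a median of 77.5%.

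The promoters themselves were also searched. Of 436 gene symbols, 334 had a promoter of 300 bp (250 bp before to 50 bp after the start) in the RefSeq table of GRCm38.p6, and 410 such promoters of 313 genes had their start inside a broad peak of that gene. They held a median of 23 CpGs, against 7 over all 32619 promoters. GGGCGG, the core of the GC box bound by SP and Kruppel-like factors, was present on either strand in 64.1% of them and in 35.9% of all promoters. TATAAA was in 10.7% and 13.7%, CCAAT in 35.4% and 37.6%, TGANTCA of AP-1 in 4.15% and 7.85%, CATTCC of TEAD factors in 14.1% and 14.6%, and the CArG box of SRF in 1.22% and 1.64%. Between promoters in peaks with under 50% mean H3K4me1 cover and the rest, the median number of CpGs was 21 against 24, so that the difference in CpG content between these peaks was not seen in the 300 bp about the start. All promoters include those of genes without an H3K27ac promoter peak, and 56.7% of protein-coding genes had such a peak. Promoters in shorter H3K27ac peaks were not counted. Whether CpG number or GGGCGG differs between broad peaks and shorter promoter peaks was thus not tested. A match of letters is a description and not a bound site.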

How the data were processed

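ChIC-Seq was performed for H3K27ac, H3K4me1 and IgG in primary oviductal muscle cells, with 3 samples each. Per the submitters' processing notes, cutadapt, Bowtie2 and MACS2 were used, on GRCm38.p5, and trimming, alignment and duplicate settings are not given in the sources used here. Per the file headers, the authors called broad peaks from paired ends with MACS 2.2.7.1, with p cutoffs of 0.05 and 0.1, scaled the larger library to the smaller, and called each mark also on its 3 replicates pooled. So the deposited pileup is a signal of coverage on the IgG scale. The deposited fold enrichment is a ratio to local background, and the deposited p-value is a −log10 value. This column was used as a filter in alternatives and fold only to describe. The IgG samples had no list of their own here.

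Start sites were 54081 distinct protein-coding starts of 21670 genes (GENCODE mouse release 21, on chromosomes 1 to 19 and X). Every peak ended within the GRCm38 chromosome lengths. An overlap of 1 bp counted. Cover is the base pairs of a set under the peaks of a list, in %. Each comparison of 2 sets used the same 3 H3K4me1 lists, so the values were paired by list and tested by an exact permutation test, with Benjamini-Hochberg adjustment over 4 comparisons. With 3 pairs of equal sign, the paired exact permutation test gives p = 0.25 whatever the spread of the differences. The samples are few and of unstated origin, so the spread between them may be technical. The scripts were tested on simulated data. Intervals were handled in pandas 2.3.3 and numpy 2.4.6 under Python 3.11.15.

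Named were the 10 longest peaks, the 3 highest and lowest by pileup, the 3 highest and lowest by H3K4me1 cover, the 3 lowest by replicate cover, those nearest the length limit, the 3 with the most genes and peaks over genes of 17 lists. Some listed genes are not reported here. The members and lists were chosen with earlier results of these data known. Alternatives changed the length minimum, the promoter window, the starts, the peak filters and the replicates used.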

Additional observations from a re-analysis of the deposited data

How the results depend on the processing

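Of 48 alternatives to the 4 comparisons of H3K4me1 cover, 4 changed only the pairing and so kept the mean by construction. The direction of the mean was kept in 47 of the 48. In 3 of these the lists no longer shared a sign: against broad peaks elsewhere with the p filter (highest list 0.481) and at a minimum of 15000 bp (0.779), and within 1 kb with 1 start per gene (lowest list -0.288). Cover in broad promoter peaks exceeded that in promoter peaks of 5000 bp up to 10000 bp by 7.82 to 14.8 percentage points over the alternatives, and lay below that of broad peaks elsewhere by 1.85 to 10.1 points (differences -1.85 to -10.1). The difference within 1 kb of a start was 0.488 to 6.89 points. The difference at 2 to 5 kb was -3.14 points with 1 start per gene, a reversal, and otherwise 1.16 to 8.04 points, the highest with the p filter, followed by 4.00 with the mean of the cover of each peak. Leaving out each H3K4me1 replicate gave 9.22 to 10.2, -5.69 to -4.78, 2.31 to 4.03 and 1.16 to 1.72 points. With no replicate block, that is without pairing the values by list, the differences were the same 9.73, -5.36, 3.16 and 1.38 points, with exact permutation p = 0.1, 0.1, 0.1 and 0.6. The pairing is that of the same list over both sets and not of same-numbered samples. The count of broad promoter peaks moved with the length minimum, to 707 (838 genes) at 8000 bp, 160 (198 genes) at 12.5 kb and 88 (112 genes) at 15000 bp. From replicates 1, 2 and 3 alone it was 181 (208 genes), 123 (148 genes) and 93 (109 genes). With other windows, starts or the p filter it was 295 to 359. The count broad in at least 2 replicates was 48 to 76 when 1 replicate was left out, when both others had to hold such a peak, and 90 when the replicate had to cover at least 50% of the pooled peak. Counts of peaks met by all replicates stayed at 313 or more. The part of depth in where a peak ends was not tested (the IgG libraries had 3110985 to 3713369 fragments), and cover counts called sequence rather than the amount of a mark.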

Other observations

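Gene families recognised by their symbols after the members were seen add to the listed genes, and are given as counts with no test. In the Hist1 histone clusters 24 of 54 genes, in 6 peaks, had a broad promoter peak, and 48 of 54 had a promoter peak of any length. The Hox clusters differed: 4 of 11 Hoxa genes, in 1 peak, and 4 of 9 Hoxd genes, in 2 peaks, had one. Of Hoxb genes 0 of 10 and of Hoxc genes 0 of 9 did, although 6 Hoxb and 5 Hoxc genes had a promoter peak. Of the heterogeneous nuclear ribonucleoprotein genes, which bind nascent RNA, 4 of 20 did (Hnrnpa2b1, Hnrnph3, Hnrnpk and Hnrnpu), and of the Srsf splicing factors 2 of 11 (Srsf3 and Srsf11). Sp1, Sp2 and Sp3 had one among 9 genes of the Sp family, and Mbnl1 and Mbnl2 among 3 muscleblind genes. Of 1134 olfactory receptor genes 1 did (Olfr56), and of 331 vomeronasal receptor genes 0. The background was 2.02% of protein-coding genes.

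The longest peak of all in the pooled H3K27ac list was not over a promoter of a protein-coding gene by this annotation. It covered 61975 bp at Vmp1 and Mir21a on chromosome 11, with a pileup of 9.75 and a mean H3K4me1 cover of 59.9%. Among broad peaks away from promoters it was followed by 47379 bp within Rad51b (pileup 5.73, H3K4me1 cover 68.5%) and by 38605 bp at Lncppara and Gm49539 (10.85, 66.9%). A peak of 32755 bp lay over the noncoding genes Neat1 and Malat1 on chromosome 19, with a pileup of 10.63 and H3K4me1 cover of 44.8%.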
